A study of Homo sapiens with 2 samples.

Results

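The ARMC9 and B3GNT7 locus on chromosome 2 was described here from a HiChIP of the fusion protein TCF3::HLF in HAL-01, a human leukemia line that carries t(17;19). An interaction was counted as part of the locus when at least 1 of its 5-kb bins overlapped the body of ARMC9 or B3GNT7 or the 50 kb around either gene, and 82 of the 49245 listed interactions met this rule. The cells carried Cas9GFP and a stable knockout of wild-type TCF3, expanded from a clone, so that the E2A antibody precipitated the fusion protein. The design held 1 condition with 2 replicates, which the authors merged before calling. None of the values has a replicate error, there was no second group to compare with, and no test between conditions was possible. The locus was chosen by the summed contact count of a merged group of neighboring bin pairs (sumCC), which is among the highest of the list here. Contact counts, sumCC, P values and the numbers of interactions are therefore given as a description, with no test.

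HiChIP joins DNA ends that lie close together in the nucleus and enriches those bound by a chosen protein, with background pairs remaining in the library. TCF3::HLF binds DNA through the bZIP domain of HLF, which recognizes short palindrome-like sites. B3GNT7 encodes a Golgi N-acetylglucosaminyltransferase that extends the sugar chains of keratan sulfate. ARMC9 encodes an armadillo repeat protein of the ciliary basal body, and mutations in it cause Joubert syndrome. Neither role was measured here.

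In hg38, ARMC9 spans chr2:231198546-231376848 on the plus strand (178 kb, 25 exons in the canonical transcript of GENCODE release 44). B3GNT7 spans chr2:231395710-231401164 on the same strand, with 2 exons and a length of 5.46 kb, and starts 18861 bp beyond the end of ARMC9. The window with 50 kb on each side runs from 231148546 to 231451164 (303 kb). Of its 62 bins, 36 took part in a listed interaction, and 42 bins outside it were partners. The values used here are those of called pairs, and whether the locus forms a self-contained domain in a full contact map was not analysed here. The first anchor bin within the window, at 231165001, had 1 interaction with a contact count of 28, and the last, at 231445001, had 2 with 31 and 37. Just outside the edges, the bin at 231135001 had 6 interactions with contact counts from 21 to 69, of which 2 reached the window, and the bin at 231465001 had 1 with 39.

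The sites below are shown because they lie in the bins that carry most interactions of the locus, or in bins that these contacts reach. They were read from hg38 as exact matches to TTACGTAA or TTATGTAA on either strand, with the matching bases in capitals.
ARMC9 intron 9, first and second site, chr2:231241936-231241965, plus strand: gcagTTACATAActtttaTTATGTAAtatt
ARMC9 intron 9, other site, chr2:231242111-231242140, plus strand: aggtgtgttacTTATGTAAtttaaaaacaa
ARMC9 intron 7, chr2:231228917-231228946, plus strand: ttctgggagcaTTATGTAAatctgataagt
ARMC9 intron 20, chr2:231343510-231343539, plus strand: gtgctaatatcTTATGTAAtttatagcata
ARMC9 intron 21, chr2:231347958-231347987, plus strand: tcacattaaatTTATGTAAtgttttggaga
Downstream of B3GNT7, chr2:231410821-231410850, minus strand: gtctcctttagTTATGTAAatgtggctgag
PSMD1, upstream of the window, chr2:231106094-231106123, plus strand: gagttcttttgTTACGTAAgggtgtttaac
The 3 sites of intron 9 fall within 190 bp, and the first and second start 14 bp apart and lie on opposite strands. The site in PSMD1, a gene for a proteasome subunit, is the fully palindromic form. A match is a description of the letters and does not show binding.

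The busiest bin of the locus, chr2:231240001-231245000, took part in 32 interactions and held all 3 sites of intron 9. It covers the last bases of exon 9 of ARMC9 and the beginning of intron 9. Among all 53535 anchor bins of the list, it ranked 22 by the number of interactions and 12 by summed contact counts. Its 32 interactions were 39.0% of those of the locus and carried 1349 of the 2937 read pairs of the listed interactions (45.9%). Significant pairs of merged groups that are not listed by themselves are left out of these sums. With the sumCC of each group counted once, the locus had 4854 read pairs. The bin at 231225001, at exon 7 and with the site of intron 7, followed with 15 interactions (rank 274). The bin at 231235001, directly before the busiest bin and without an exact site, had 9. These 3 bins took part in 56 of the 82 interactions (68.3%). The next in number were 231295001, at exon 19 of ARMC9, with 7 and 231300001 with 5, and 231390001, next to B3GNT7, also had 5. No other anchor bin of the window had more than 3, and 24 of the 36 (66.7%) had 1, against 78.0% of all anchor bins. Contacts of the locus thus started mainly from a short stretch in the first part of ARMC9.

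**Figure D1:**
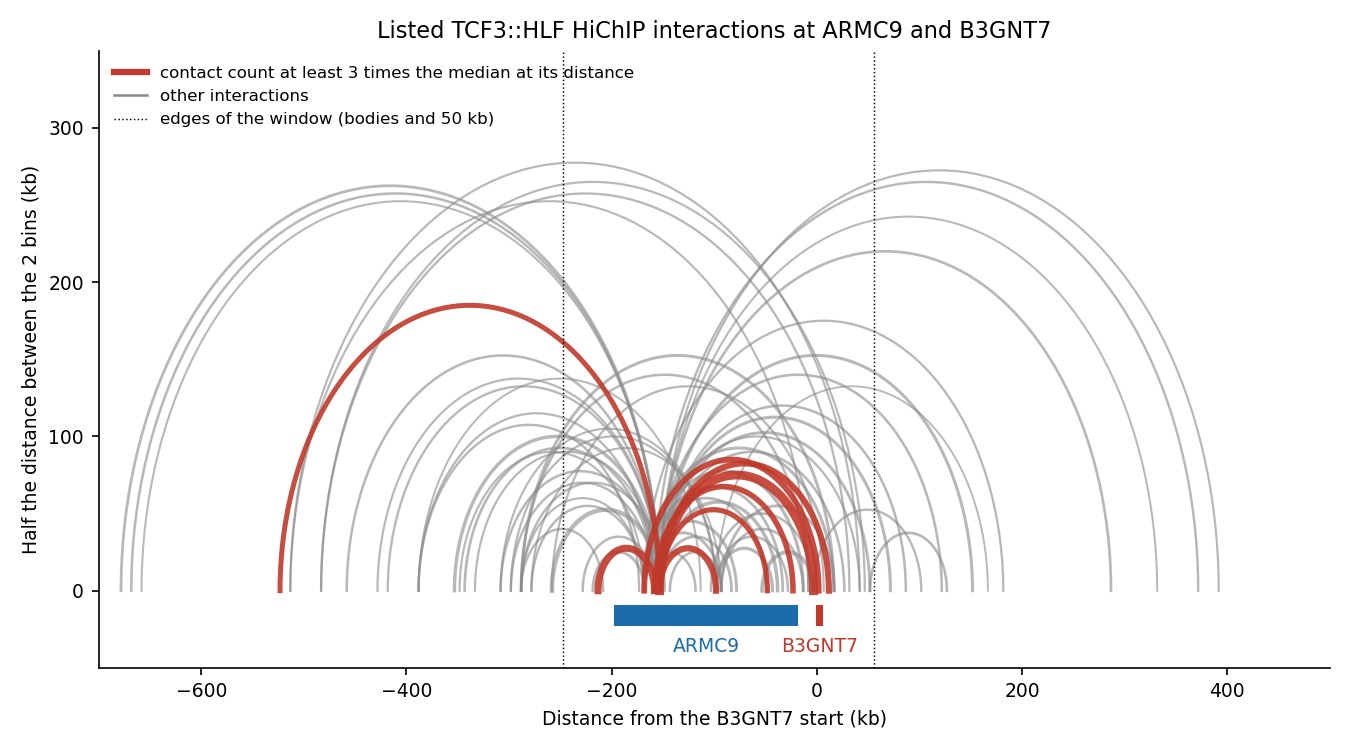
Arcs join the 2 bins of each listed interaction, plotted by distance from the B3GNT7 start in kb, with a height that grows with the distance between the bins and a line width rising with the contact count. The 8 interactions at 3 or more times the median of their distance are red, and 7 of them lie within the window, while 11 of the 82 interactions reach beyond the plot and are not drawn.

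The largest contact count of the locus joined the busiest bin in ARMC9 with the bin at 231390001, which ends 0.71 kb before the start of B3GNT7. It was 165 (exact Poisson 95% interval, 141 to 192) at a distance of 150 kb, with a listed P value of 4.21e-137, and ranked 14 by contact count and 15 by P value in the whole list. The median over the 494 listed interactions at the same distance was 24, so that it was 6.88 times as high. The bin at 231390001 also overlaps the long noncoding RNA gene ENSG00000224376, which starts at 231388976 in the bin before it. On the other side of B3GNT7, the bin at 231405001, beyond its end, had a contact count of 104 (85.0 to 126) with the same bin in ARMC9. The start of B3GNT7 itself lies in the bin at 231395001, whose only listed interaction was with the bin at exon 7 of ARMC9, 170 kb away. This contact count was 99 (80.5 to 121), or 4.13 times the median of 24 at that distance. The Poisson intervals of 104 and 99 overlap, while that of 165 lies above both. They cover counting error only, and as duplicates stayed in the counts, they are too narrow.

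These contacts belonged to 1 merged group, in which 6 bins from 231220001 to 231250000 faced 14 bins from 231355001 to 231425000. Of its 84 bin pairs, 29 were significant (a deposited fraction of 0.345), and their contact counts added up to a sumCC of 1646, rank 3 among the 3587 merged groups of the list. Only 7 of these pairs are listed by themselves, with 577 read pairs between them. The other listed pairs of the group joined 231235001 with 231370001, at exons 24 and 25 of ARMC9 (contact count 93, interval 75.1 to 114), and had contact counts of 48, 39 and 29. The group therefore covered the end of ARMC9, B3GNT7 and sequence beyond it, and was not limited to the promoter of B3GNT7.

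Within 10 kb of the start of B3GNT7, 10 interactions of the locus were listed, with contact counts from 14 to 165. Besides those with ARMC9 exons 7 and 9, the bin at 231390001 reached 231340001 in ARMC9, which holds the site of intron 20 (contact count 59, interval 44.9 to 76.1, at 50 kb), and 231290001 at exon 18 (28, interval 18.6 to 40.5). It also reached 231495001 downstream (25, interval 16.2 to 36.9) and 232760001 in GIGYF2, 1.37 Mb away (14, interval 7.65 to 23.5). None of the 6 bins from 231380001 to 231410000 around B3GNT7 holds an exact HLF motif. Of the 10 interactions, 8 had a motif in the other bin, 2 of them through the busiest bin. Over the whole list, 66.8% of interactions had a motif in at least 1 bin, and the difference was not tested. Counted by bin, which is another measure, 31.5% of all anchor bins and 66.7% of those with 10 or more interactions held one. The nearest anchor bin beyond B3GNT7 with a site, 231410001, reached 231225001 (contact count 39), 231105001 (37) and 231300001 (34).

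For ARMC9, the picture at its own promoter was different. The bin of its start, 231195001, which holds the first base of 34 of the 45 annotated transcripts, had 0 listed interactions. The busiest bin lies 45 kb from it, below the 50 kb at which calling began, so a contact between the start and the busiest bin could not be listed. Within 10 kb of the start, a single interaction was listed, between 231185001 and 231105001 in PSMD1 (contact count 24, interval 15.4 to 35.7). The body of ARMC9 took part in 71 interactions, and that of B3GNT7 in 2.

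Inside ARMC9, the contacts ran from the 3 busy bins in both directions. Toward the start of the gene and beyond it, 231235001 joined 231180001, between PSMD1 and ARMC9, with a contact count of 126 (105 to 150) at 55 kb, 4.85 times the median of 26. Toward its end, the busiest bin joined 231295001, at exon 19, with 108 (88.6 to 130), also at 55 kb. It joined 231345001, at exon 21 and with the site of intron 21, with 85 (67.9 to 105) at 105 kb. Each of these 3 had merged neighbors, with sumCC values of 222, 489 and 211. The bin at 231360001 holds the start of MIR4777, a microRNA gene within ARMC9. Its contact count of 32 (21.9 to 45.2) with 231225001 was 1.28 times the median of 25 at 135 kb, and its interval includes this median.

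Interactions with both bins in the window were 28 of the 82 (34.1%), at a median distance of 102.5 kb. They had a median contact count of 37.5 (range, 21 to 165) and carried 51.6% of the read pairs of the listed interactions. This share leaves out significant pairs of merged groups that are not listed by themselves. The 35 interactions that ran upstream had a median of 23 (16 to 81) at a median distance of 265 kb, and the 19 that ran downstream a median of 25 (14 to 43) at 485 kb. Relative to the listed interactions at the same distance, the medians of the ratios were 1.44 within the window, 0.980 upstream and 1.14 downstream. The group by which the locus was chosen lies within the window, so nothing is read from the first of these values. Contacts that left the window were about as high as others of their length.

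**Figure D2:**
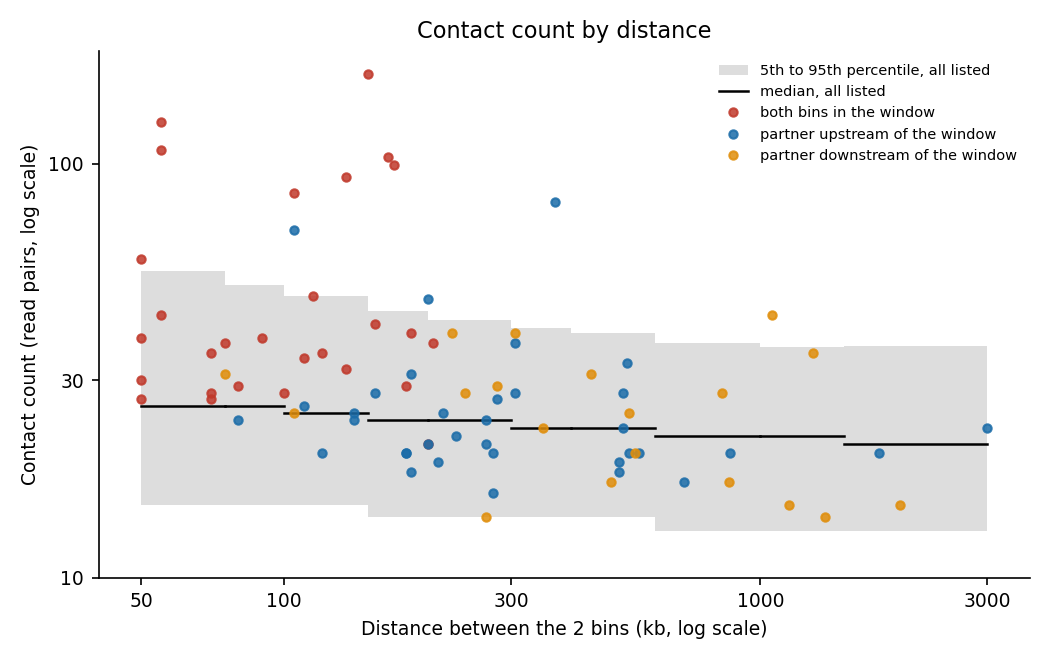
Contact count against the distance between the 2 bins in kb, both on log scales, for the 82 interactions of the locus (points) over the median and the 5th to 95th percentile of all listed interactions (line and band). The 8 points at 3 or more times the median are 7 pairs within the window at 55 to 170 kb, up to the contact count of 165, and 1 upstream pair at 370 kb.

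Of the 82 interactions, 8 had a contact count at least 3 times the median of their distance (9.76%), where 0.556% of the whole list did. A contact count of 100 or more was found in 4 (4.88%, whole list 0.195%), and 17 belonged to merged groups of more than 1 bin pair (20.7%, whole list 7.69%). These measures are tied to the sumCC by which the locus was picked, and nothing is read from them. A count above the median of its distance was found in 51 (62.2%, whole list 47.6%), and a q-value under 1e-05 in 55 (67.1%, whole list 66.5%), which is close to the background. The same contact count could carry unlike P values, since the background depends on the coverage of both bins and on distance. A contact count of 35 had a P value of 4.03e-13 between 231225001 and 231345001, at 120 kb. For the busiest bin with 231310001, at 70 kb, the same count had a P value of 1.36e-06. The latter bins share 37 sequences of 31 bases, the most of any pair in the locus, and the part of such repeats in the count was not tested.

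**Figure D3:**
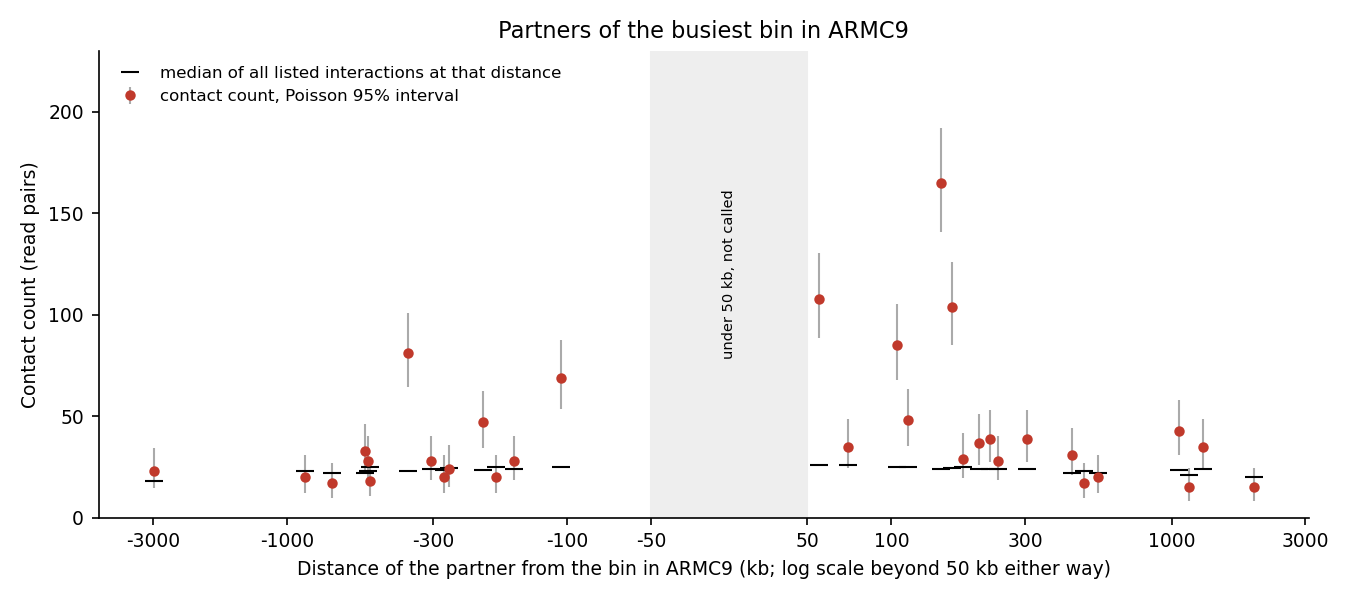
Contact counts of the 32 interactions of the busiest bin in ARMC9 with exact Poisson 95% intervals, against the distance of the partner in kb, with upstream partners at negative values, and short lines mark the median of all listed interactions at the same distance. The highest counts, 165, 108 and 104, lie downstream within 165 kb, and the highest upstream counts are 81 and 69.

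The busiest bin reached 14 partners upstream and 18 downstream. The upstream contact counts had a median of 26 and added up to 456, and the downstream ones had a median of 36 and added up to 893. Upstream, the strongest partner was the bin at 230870001 in ITM2C, which encodes a transmembrane protein with a BRICHOS domain, with a contact count of 81 (64.3 to 101) at 370 kb and a P value of 6.89e-52. That bin lies 5.36 kb beyond the start of ITM2C, had no other listed interaction and holds no exact HLF motif. The next was 231135001 in PSMD1, with 69 (53.7 to 87.3) and a sumCC of 164. The merged range of this contact begins at 231125001 and takes in the start of HTR2B, a serotonin receptor gene that lies within PSMD1. The bin at 231040001 in C2orf72 followed with 47 (34.5 to 62.5) at 200 kb, and 230715001, 2.16 kb beyond the start of CAB39, a scaffold gene of the LKB1 kinase complex, with 33 (22.7 to 46.3) at 525 kb. Only the contacts with ITM2C, PSMD1 and C2orf72 of these 14 were at least 2 times the median of their distance.

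The bin at 231105001 in PSMD1, with the palindromic site, was a partner of the locus apart from the busiest bin. Of its 8 interactions, 5 reached the window, with contact counts of 20 at 231225001, 24 at 231185001 and 231245001, 27 at 231385001 and 37 at 231410001. The last of these, across 305 kb and beyond B3GNT7, was 1.54 times the median of 24 at that distance, and the Poisson interval of 37 (26.1 to 51.0) lies above this median. The intervals of the other 4 include the median of their distance. A contact of this bin with the busiest bin was not among the listed interactions.

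Downstream, the busiest bin reached NCL, the gene of the nucleolar protein nucleolin, with contact counts of 39 (27.7 to 53.3) in its body at 231465001 and 28 (18.6 to 40.5) at its start, at 231480001. Of its 4 downstream contacts beyond 1 Mb, those in DIS3L2 and CHRND were above the median of their length. The bin at 232300001 in DIS3L2, an exoribonuclease gene, had 43 (31.1 to 57.9) at 1060 kb, with a P value of 3.79e-22. The bin at 232530001 in CHRND, a subunit of the muscle acetylcholine receptor, had 35 (24.4 to 48.7) at 1290 kb, with a P value of 1.17e-16. They were 1.83 and 1.46 times the medians of 23.5 and 24 over 38 and 29 interactions at these distances. The bins at the starts of PDE6D, a prenyl-binding protein (20, interval 12.2 to 30.9, at 545 kb), and of the autophagy gene ATG16L1 (15, interval 8.40 to 24.7, at 1970 kb) had counts under the medians of 22 and 20. The farthest partner lay upstream at 228250001, 2990 kb away and in no protein-coding gene or long noncoding RNA, with 23 (14.6 to 34.5) and a q-value of 1.31e-10. Its interval includes the median of 18 at this distance, which rests on only 5 interactions.

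The starts of 4 protein-coding genes lay in a bin of these interactions, namely B3GNT7, NCL, PDE6D and ATG16L1. Each appeared in 1 interaction, so that 4.88% of the 82 (Wilson 95% interval, 1.91 to 11.9%) touched a gene start, against 9.65% of the whole list. With a start within 10 kb of a bin, the share was 31.7% (22.6 to 42.4%) against 33.0%, and 16 genes were reached, ARMC9 and B3GNT7 among them. An interaction can count for several genes, as the contact count of 35 with 232530001 did for CHRND, CHRNG and PRSS56. B3GNT7 then led with 10 interactions and 561 read pairs, followed by HTR2B with 4 and 134, ITM2C with 1 and 81, PSMD1 with 3 and 71, and C2orf72 with 2 and 67. B3GNT7 lies in the window, so all its interactions count, while genes outside it count only through pairs that reach the window. The largest contact counts of B3GNT7 also belong to the merged group by which the locus was chosen, and nothing is read from this order. The other 11 genes had 1 interaction each, with contact counts from 15 to 35.

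The anchors of the locus did not stand out by HLF motifs. Of the 36 anchor bins in the window, 7 held an exact motif (19.4%, Wilson 95% interval 9.75 to 35.0%), and of the 26 other bins in the window, 8 did (30.8%). A motif was found in 13 of the 42 partner bins, in 31.5% of all anchor bins and in 32.1% of all chromosome 2 bins. Both bins of the window with 10 or more interactions held a motif, where 66.7% of the 1126 such bins in the list did. The next bins in number, 231235001, 231295001, 231300001 and 231390001, held none. Counted by interaction, 59 of the 82 (72.0%) had a motif in at least 1 bin, against 66.8% of the list, and 15 (18.3%) in both, against 16.2%. The only TTACGTAA of the window, in intron 17 at 231288277, lay in a bin with 0 listed interactions.

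Interactions that pass over a position show how far contacts around the locus extend. Their number rose from 44 at the left edge of the window to 55 at 231245001, just behind the busiest bin, stayed at 54 or 55 up to 231280001, and was 46 near the start of ARMC9 and 39 near that of B3GNT7. At the right edge it was 28. The median over 11810 positions of chromosome 2 was 5, and 0.203% of them had 55 or more. With contact counts added up, the highest value was 1996, at 231255001, and 716 read pairs still spanned the lowest point, at the right edge. The locus therefore lay within a wider stretch of contacts, with no gap in the listed interactions at either edge.

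Among 19962 protein-coding genes, taken with 50 kb on each side, ARMC9 ranked 27 by number of interactions (79) and 8 by summed contact counts (2866). B3GNT7 ranked 570 (29 interactions) and 169 (1285 read pairs), and shared 26 of its interactions with ARMC9, so that the 2 values are not independent. The median gene had 4 interactions. Per 100 kb of window, which allows for the unequal lengths, they were close together with 28.4 for ARMC9 (rank 111) and 27.5 for B3GNT7 (rank 121). By number and summed contact counts on the log2 scale, over 16777 genes with interactions that were over 3 Mb away or on another chromosome, the genes nearest to ARMC9 were KLHL13 (81 interactions, 2653 read pairs), KIF3C (72 and 2563) and THADA (79 and 2426). Those nearest to B3GNT7 were SV2B (29 and 1357), ENSG00000266086 (31 and 1139) and GALNTL6 (30 and 1122).

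The other B3GNT genes, whose enzymes add the same sugar to different glycan chains, had fewer contacts around them. B3GNT2, which extends poly-N-acetyllactosamine, came next with 22 interactions, but its largest contact count was 44, against 165 at B3GNT7. B3GNT5, an enzyme of glycolipid synthesis, had 9 with a largest contact count of 67. B3GNT3, of O-glycans, had 0. Over the 8 genes of the family, the median was 7 interactions. Of 13 genes of keratan sulfate synthesis, all had at least 1 interaction within 50 kb, where 84.3% of all protein-coding genes did, with a median of 10. Besides both B3GNT genes, the highest numbers were those of the sialyltransferase gene ST3GAL1 with 19, and of the galactosyltransferase gene B4GALT1 and the sulfotransferase gene CHST1 with 12 each. These lists were put together after the data had been seen, and differences between the genes were not tested. The contact count of 165 at B3GNT7 belongs to the merged group by which the locus was chosen, so nothing is read from the place of B3GNT7 in these lists.

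The loci of MEF2C, a transcription factor, and ITGA4, an integrin subunit, were set beside this locus as other loci with a high sumCC. The body of MEF2C with 50 kb on each side had 69 interactions, and that of ITGA4 had 15. Their largest contact counts were 322 (288 to 359) and 235 (206 to 267), both above the 165 at ARMC9 and B3GNT7. Their Poisson intervals do not meet that of 165, but these cover counting error only. The 3 counts were not compared at equal distances. The sumCC, by which this locus was chosen, was 1646 here, 1154 at MEF2C and 802 at ITGA4, and nothing is read from their order. The busiest bin took part in 39.0% of the interactions here, in 23.2% at MEF2C (16 interactions) and in 26.7% at ITGA4 (4 interactions). With 1 merged library, differences between the loci were not tested.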

How the data were processed

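HiChIP with an E2A antibody was carried out on TCF3-KO HAL-01 cells in 2 replicates. According to the methods and the labels, the authors trimmed reads with Trim Galore 0.6.6, merged the replicates, aligned to hg38 with BWA-MEM, extracted pairs with pairtools without removing duplicates, called MACS2 peaks as reference and called interactions with FitHiChIP (version not given in the sources used here) between 5-kb bins 50 kb to 3 Mb apart at q under 0.01. The deposited contact counts and sumCC are raw counts of read pairs, summing to 1268490 contact counts over all 49245 listed interactions. The p-value and q-value were deposited by the authors, as was the fraction of significant bin pairs per merged group. Interactions of 1 merged group can be listed several times with the same sumCC, which was counted once.

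The bins were checked against hg38 (0 past a chromosome end) and matched to GENCODE release 44. Positions are 1-based. Medians at the same distance cover listed, hence significant, interactions only. Contact counts have exact Poisson and shares Wilson 95% intervals. Overlaps, bin counts and motif counts were tested on simulated data. The members and lists were chosen with earlier results of these data known. Named were both genes, genes with a start in a partner bin, the busiest bins, the largest contact counts and the genes most alike in contacts. The glycan genes and the genes within 10 kb were added after the values were seen. Alternatives were stricter q-values, other windows, only distances up to 1 Mb, only contact counts from 20, merged ranges, single bin pairs, sumCC, other promoter windows and wider motifs. Scripts ran in Python 3.11.15 with scipy 1.17.1, pandas 2.3.3, matplotlib 3.10.9 and numpy 2.4.6.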

Additional observations from a re-analysis of the deposited data

How the results depend on the processing

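The number of interactions of the locus stayed within 1.5 times of 82 under all 8 alternatives, from 55 with a q-value under 1e-05 to 89 with 100 kb around the genes. The ratio of 6.88 for the largest contact count was 65.8 with sumCC and 5.69 with a q-value under 1e-05. The value of 65.8 sets the sum over a merged group against a list in which 92.3% of interactions are single bin pairs. That sum is also the value by which the locus was chosen, so nothing is read from this ratio. The busiest bin ranked 22, or 12 by summed contact counts, 28 with a q-value under 1e-05 and 15 with merged ranges. The highest number spanning, 11 times the median of chromosome 2, was 16.9 times with contact counts added up and 22 times with distances up to 1 Mb. The share of interactions at a gene start, 4.88%, was 31.7% within 10 kb and 18.3% with every transcript start. Over the whole list, these shares were 9.65%, 33.0% and 24.0%. The Wilson interval of 18.3% (11.4 to 28.0%) includes the share of the list. The share of anchor bins with an HLF motif, 19.4%, was 44.4% with the wider motif (all anchor bins, 63.5%). With 1 bin on each side it was 55.6% (all anchor bins, 63.5%). It was below that of all anchors each time, but only the Wilson interval of the wider motif (29.5 to 60.4%) lies below that share. The intervals of the exact motif (9.75 to 35.0%) and with 1 bin on each side (39.6 to 70.5%) include the share of all anchors. The rank of ARMC9 moved from 27 to 111 per 100 kb. That of B3GNT7 moved from 570 to 4976 for its body alone, to 121 per 100 kb and to 309 with a q-value under 1e-05. The alternatives differ in what they count or in which pairs they keep, and the reasons for these changes were not tested.

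No paired analysis was possible because the replicates of the single condition were merged before calling, and for the same reason no replicate was left out. The list holds pairs past the threshold of the caller at 50 kb to 3 Mb, and other pairs are not shown to be absent. Some significant pairs of merged groups are also not listed by themselves. Neither peaks nor an IgG control were analysed here.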

Other observations

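As for most bins with many interactions, few partners of the busiest bin in ARMC9 were joined with each other in the list. Of the 453 pairs of its 32 partners that lie 50 kb to 3 Mb apart, 1 was a listed interaction (0.221%), between 231085001 in PSMD1 and 231295001 at exon 19 of ARMC9, with a contact count of 19. For the bin at exon 7, 4 of 90 such pairs were listed (4.44%). Over all 1126 bins with 10 or more interactions, 917 had 0 joined pairs, and 82.1% had a share at or below that of the busiest bin. The list holds only pairs past the threshold of the caller, so weaker contacts among partners were not detectable. Significant pairs of a merged group can also be unlisted, as in the group with a sumCC of 1646, where 7 of 29 were listed. Joined partners can therefore be missing from these counts for either reason.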
